A study of Mus musculus with 4 samples.

Results

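The genes of the platelet-derived growth factor (PDGF) family were examined in single-cell RNA sequencing data from the stromal vascular fraction of mouse gonadal adipose tissue. The members were taken by gene symbol. They are the 2 receptor genes, Pdgfra and Pdgfrb, and the 4 ligand genes, Pdgfa, Pdgfb, Pdgfc and Pdgfd, 6 of 31054 genes in the expression matrices. All 6 were detected. Pdgfra lies on mm10 chromosome 5 (75152292 to 75198215, plus strand) and Pdgfrb on chromosome 18 (61045150 to 61085061, plus strand). Pdgfa lies on chromosome 5 (138976014 to 138997370, minus strand) and Pdgfb on chromosome 15 (79995874 to 80014977, minus strand). Pdgfc lies on chromosome 3 (81036416 to 81214040, plus strand) and Pdgfd on chromosome 9 (6168584 to 6378850, plus strand). All 6 are annotated as protein-coding, and a 3′ tag counts a transcript of the gene without resolving its isoforms.

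PDGFs are secreted dimers that bind receptor tyrosine kinases on mesenchymal cells. PDGF-A and PDGF-C act mainly through PDGFRα, PDGF-D acts mainly through PDGFRβ, and PDGF-B binds both receptors. PDGF-C and PDGF-D are secreted as latent factors and are activated when proteases remove their CUB domains. In adipose tissue PDGFRα marks adipose progenitor cells (APCs), PDGFRβ is carried by progenitors and by the mural cells that wrap small vessels, and endothelial PDGF-B is the classical recruiting signal for mural cells.

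Mice of the p16-CreERT2/R26-LSL-tdTomato genotype were 18 months old, and all of them, per the study's methods, were males given tamoxifen before tissue collection. In this model Cre is driven from the p16 promoter, so that a cell in which the promoter was active when tamoxifen was present turns permanently Tomato-positive (Tom+). Cells were sorted by CD45, a leukocyte surface protein, and by Tomato into 4 populations, and 1 library was made from each. Libraries are named below in a fixed order, in which the Tom+ and then the Tom- library of the pair labelled CD45- come before the Tom+ and then the Tom- library of the pair labelled CD45+. The number of mice behind a library is not given in the sources used here. Each of the 4 groups had 1 library, and no test between groups was run. Intervals below are 95% exact intervals that cover counting error only, and a library is called by its label.

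After quality filters and doublet removal, 13878 cells remained, 3886, 3674, 1927 and 4391 in that order, with medians of 18331 to 19516 unique molecular identifiers (UMIs) per cell. Tomato transcripts separated the labels (713 and 714 CPM, the gene's UMIs scaled to 1000000 UMIs in all, in the Tom+ libraries against 15.8 and 18.7 in the Tom- libraries). Ptprc, which encodes CD45, did not. It stood at 217, 157, 223 and 188 CPM, and each library held leukocytes and stromal cells side by side. Cdkn2a, which encodes p16, lay between 6.78 and 7.57 CPM in the 4 libraries. Of the cells, 3555 (25.6%) carried a barcode that was also deposited in another library, and for 80 of them it was also kept as a cell there.

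Over whole libraries the receptors were higher in both Tom- libraries. Pdgfra stood at 64.1 CPM in the library labelled CD45- Tom+, 306 in CD45- Tom-, 59.8 in CD45+ Tom+ and 288 in CD45+ Tom-. Pdgfrb stood at 27.0, 142, 23.8 and 139 CPM in the same order. The libraries differed as much in their cells, since APC-like cells made up 6.79%, 41.7%, 5.55% and 39.0% of them.

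Among the ligands, Pdgfd was also higher in the Tom- libraries, at 3.53, 18.4, 3.22 and 17.1 CPM, and Pdgfa less so, at 13, 21.9, 14.0 and 20.4 CPM. Pdgfc was higher in the Tom+ libraries, at 8.03, 4.25, 9.15 and 4.12 CPM. Pdgfb stayed between 15.9 and 18.0 CPM in all 4. Levels within a cell class are therefore given next.

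Cells were clustered without the 6 genes, and clusters were named from marker genes as X-like or left as numbers. This gave 20 classes of at least 50 cells. APC-like cells (3616) expressed the collagen and proteoglycan genes of progenitors, with Dcn between 11859 and 13890 CPM and Lum between 2288 and 2595 CPM in the 4 libraries. The unnamed groups that matter for PDGF genes are called by number.

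Cluster 7 (720 cells, led by Cxcl13, Cxcl5 and Saa3) raised mesothelial and APC markers alike. Cluster 4 (970 cells, led by Arg1, Spp1 and Olr1) raised all macrophage markers and also monocyte genes. Cluster 12.0 (127 cells, led by Gpihbp1 and Fabp4) raised endothelial and adipocyte markers, and cluster 20 (166 cells, led by Lep, Rgs5 and Igkc among others) mixed markers of several lineages.

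**Figure D1:**
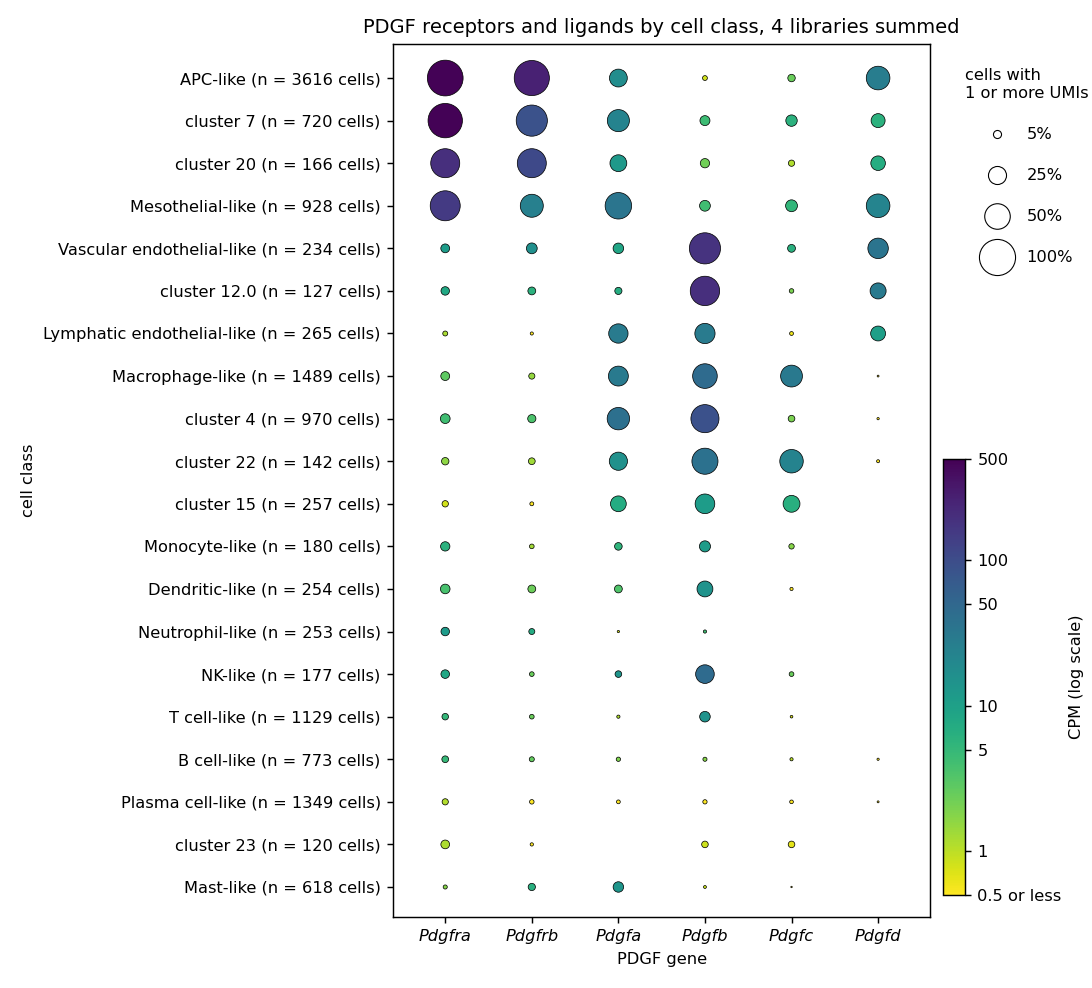
Levels of the 6 PDGF genes (columns) in the 20 cell classes of at least 50 cells (lines), the 4 libraries summed; colour gives CPM on a log scale and circle area the share of cells with at least 1 UMI. The receptors fill the stromal lines, with Pdgfra at 476 CPM in APC-like cells, while Pdgfb is highest in cluster 12.0 (198 CPM) and Vascular endothelial-like cells (183 CPM) and Pdgfc in Macrophage-like cells (30.8 CPM).

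Pdgfra, the receptor for PDGF-A and PDGF-C, passed 11.6 CPM in 4 of the 20 classes. It stood at 484 CPM in cluster 7 and 476 CPM in APC-like cells, with library ranges of 346 to 604 and 416 to 494 CPM that overlapped. Cluster 20 followed at 195 CPM and Mesothelial-like cells, the lining of the tissue, at 156 CPM (137 to 198 in the 3 libraries with at least 50 of these cells). Every other class was at 11.6 CPM or below. At least 1 Pdgfra UMI was seen in 98.0% of APC-like cells (median 22473.5 UMIs per cell). In Plasma cell-like cells, which should lack the gene and were sequenced more deeply (median 38915 UMIs), the share was 2.97%. After every cell was thinned to 2000 UMIs the shares were 58.2% and 0.0741%, and that of B cell-like cells was 1.94%. Plasma cell-like cells came mostly from the Tom+ libraries (828, 39, 424 and 58 cells in the fixed order). Pdgfra stood at 0.983, 7.16, 0.806 and 1.37 CPM in them.

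Pdgfrb, the receptor for PDGF-B and PDGF-D, was more concentrated in APC-like cells among the stromal classes. It was highest in APC-like cells at 266 CPM (225 to 270.4 across libraries), with a UMI in 94.7% of cells and in 38.9% after thinning. Cluster 20 at 109.5 CPM and cluster 7 at 88.0 CPM followed, and these did not differ beyond their library ranges. Mesothelial-like cells were at 25.2 CPM and Vascular endothelial-like cells at 16.1 CPM, and the remaining classes at 7.42 CPM or below. Summed over libraries, Pdgfra of cluster 7 was near that of APC-like cells. It was lower in both Tom+ libraries (346 and 365 against 445 and 416 CPM). In both Tom- libraries it was higher (536 and 604 against 494 and 469.9 CPM). In Pdgfrb the highest library of cluster 7 (102 CPM) lay below the lowest library of APC-like cells.

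The highest Pdgfrb level of all was found in cluster 12.3, a group of 44 cells that is too small to enter the order of classes and expressed mural genes (Rgs5 and Abcc9) beside endothelial ones. Pdgfrb stood at 622, 586, 482 and 613 CPM in its 19, 7, 10 and 8 cells of the 4 libraries, and at 579 CPM (528 to 633) overall. Pdgfra was at 4.84 CPM there. Of these 44 cells, 68.2% had UMIs of both Pdgfb and Pdgfrb, the ligand of the endothelium and the receptor of its mural neighbour. These cells expressed both marker lists at once (2911 CPM for the mural list and 7200 CPM for the vascular list, each summed). Whether single cells or pairs of joined cells lie behind such barcodes was not tested.

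Both receptors were found together in 93.4% of APC-like cells, and 4.56% had Pdgfra alone against 1.33% with Pdgfrb alone. After thinning to 2000 UMIs 22.8% of APC-like cells had both. In cluster 7 the share with both was 72.4% and in Mesothelial-like cells 30.4%, before thinning.

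APC-like cells fell into 4 larger clusters that differed in receptor balance. Cluster 0 was led by Il6, Ccl11 and Ptx3, cluster 1 by Inmt, Adm and Fst, cluster 11 by the matrix genes Mfap4 and Cthrc1 with Tagln, and cluster 21 by Pi16 and Sema3c. Pdgfra was 472, 494, 492 and 468 CPM in cluster 0 and 515, 586, 482 and 556 CPM in cluster 1. It was lower in cluster 11, at 273, 363, 211 and 331 CPM, and lay between 319.9 and 358 CPM in cluster 21. In each library cluster 11 was below clusters 0 and 1.

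Pdgfrb divided the clusters in another way. It was 219, 279, 243 and 283 CPM in cluster 0, 245, 296, 219.8 and 299 CPM in cluster 1 and 235, 239.9, 248 and 232 CPM in cluster 11. In the Pi16-led cluster 21 it was 87.6, 98.0, 74.4 and 87.9 CPM, of which the third value rests on 3 cells. Cluster 21 kept Pdgfra near that of cluster 11 and had less Pdgfrb than every other cluster in each library.

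**Figure D2:**
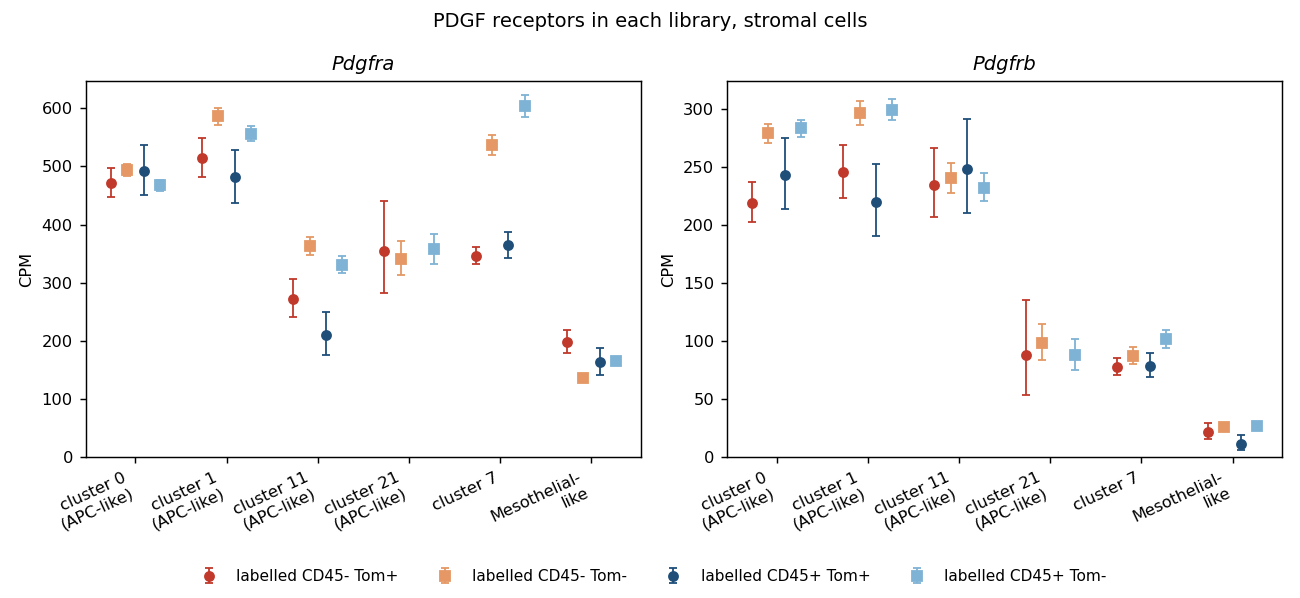
CPM of Pdgfra (left) and Pdgfrb (right) in 4 APC-like clusters, cluster 7 and Mesothelial-like cells (horizontal axis), 1 point per library of at least 10 cells in that group; bars are 95% exact Poisson intervals. Pdgfrb of cluster 21 (87.6 to 98.0 CPM) lies below that of clusters 0, 1 and 11, while Pdgfra of cluster 7 is lower in the Tom+ libraries (346 and 365 CPM) than in the Tom- libraries (536 and 604 CPM).

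The study used the Tomato label to compare p16-high with p16-low progenitors, for which it first used progenitors sorted apart from the libraries examined here. From cells sorted by CD45, its ligand-receptor analysis listed PDGF among several pathways that it reported as activated in p16-high APCs. That is another measure than the level of a receptor gene, and it was not recomputed here. The receptors were compared in APC-like cells in both pairs of libraries. Cdkn2a in these cells was 3.465, 5.76, 6.28 and 6.42 CPM in the fixed order, and was not higher on the Tom+ side of either pair. Pdgfra was 445 CPM in the Tom+ and 494 CPM in the Tom- library of the CD45- pair, and 416 and 469.9 CPM in those of the CD45+ pair. The log2 ratios of Tom+ to Tom- were -0.15 (-0.21 to -0.09) and -0.17 (-0.26 to -0.09). Pdgfra was lower in Tom+ cells of both pairs by a small amount.

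Pdgfrb was 225 and 269.5 CPM in the CD45- pair and 228 and 270.4 CPM in the CD45+ pair, with log2 ratios of -0.26 (-0.34 to -0.18) and -0.25 (-0.37 to -0.13). Both Tom+ libraries were below both Tom- libraries. After thinning to 2000 UMIs the second ratio turned to 0.09 and the first became -0.47.

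The ligand genes of progenitors were less abundant and their ratios less precise. Pdgfd was 23.6, 28.0, 24.8 and 28.2 CPM (log2 ratios of -0.25, -0.51 to 0.01, and -0.19, -0.56 to 0.17). Pdgfa was 13.7, 17.1, 20.7 and 17.5 CPM (-0.32, -0.67 to 0.01, and 0.24, -0.18 to 0.63). Pdgfd was lower in both Tom+ libraries than in both Tom- libraries and Pdgfa changed sign between the pairs, and all 4 intervals included 0. A log2 ratio of 0.322 in either direction was taken as the size of a call. Among PDGF genes, 4 averaged 10 CPM or more in these cells and counted as measured. Of these, 0 of 4 passed that size in the CD45- pair, where 9.78% of 8233 genes did, and 0 of 4 in the CD45+ pair, where 18.7% of 8194 genes did. Pdgfb and Pdgfc were below 10 CPM there.

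RNA of other cells moved with the Tomato label in the same cells. The 9 leukocyte and immunoglobulin transcripts examined summed to 17695, 852, 25118 and 1188 CPM in APC-like cells, most of it Igkc (15703, 689.6, 22604 and 1034 CPM). Of these genes 8 of 8 measured ones were higher by that size in Tom+ cells of the CD45- pair (median log2 ratio 2.12) and 4 of 7 in the CD45+ pair (1.19). Ptprc itself was at 26.6, 11.3, 20.3 and 8.90 CPM. The part of this RNA in the receptor ratios was not tested beyond the scaling without immunoglobulin and other abundant families, under which the Pdgfra ratio of the CD45- pair was -0.08.

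Within the clusters, the intervals of the Pdgfra ratio lay below 0 in clusters 1 and 11 and included 0 in cluster 0. The log2 ratios of Pdgfra were -0.07 (-0.15 to 0.02) and 0.07 (-0.06 to 0.20) in cluster 0. In cluster 1 they were -0.19 (-0.29 to -0.09) and -0.21 (-0.35 to -0.07), and in cluster 11 -0.41 (-0.60 to -0.24) and -0.65 (-0.92 to -0.40). Pdgfrb had another arrangement, with log2 ratios of -0.35 and -0.22 in cluster 0, -0.27 and -0.44 in cluster 1, and -0.03 and 0.10 in cluster 11. These ratios rest on few Tom+ cells (101 and 40 in cluster 0, 110 and 47 in cluster 1, 41 and 17 in cluster 11), and the differences between clusters were not tested. With clusters 0, 1 and 11 set to the same mix in both libraries of a pair, the ratios were -0.16 and -0.13 for Pdgfra and -0.27 and -0.28 for Pdgfrb.

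Cluster 7 had a larger Pdgfra difference than the APC-like class. Pdgfra in cluster 7 was 346, 536, 365 and 604 CPM, giving log2 ratios of -0.63 (-0.71 to -0.55) and -0.73 (-0.82 to -0.63). Its 2 Tom+ libraries were both below its 2 Tom- libraries. Pdgfrb in cluster 7 was 77.6, 87.3, 78.7 and 102 CPM (-0.17, -0.35 to 0.01, and -0.37, -0.59 to -0.15).

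Pdgfa in cluster 7 went the other way. It was 24.6, 17.4, 37.3 and 20.5 CPM, with log2 ratios of 0.50 (0.14 to 0.86) and 0.86 (0.48 to 1.23). Of the 3 PDGF genes measured in cluster 7 in the CD45- pair, 2 of 3 passed the size of a call, beside 27.4% of 8091 genes. Pdgfc was lower in level but higher in both Tom+ libraries, at 9.08, 4.25, 12.9 and 2.46 CPM. Igkc of cluster 7 was 39521, 561, 24014 and 530.5 CPM, and the median gene had a log2 ratio of -0.128 in the CD45- pair. Centred on the median of genes of at least 50 CPM, the Pdgfra ratio was -0.52. Its CD45+ Tom+ side held 93 cells, under the minimum of 100 set for a comparison, so that no share over all genes is given for that pair.

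Pdgfa, which encodes the main ligand of PDGFRα, was spread over stromal, lymphatic endothelial and macrophage classes. Among classes of at least 50 cells it was highest in cluster 4 at 40.1 CPM (34.7 to 43.0 across libraries), then in Mesothelial-like cells at 34.3, Macrophage-like cells at 29.6 and Lymphatic endothelial-like cells at 28.9 CPM. Cluster 7 (22.8 CPM) and APC-like cells (17.2 CPM) followed. Each of these neighbours in the order overlapped the next in library range. Lymphatic endothelial-like cells numbered 178, 1, 86 and 0 in the 4 libraries, so their levels here and below rest on the Tom+ libraries. Mast-like cells held 13.6 CPM from 62 UMIs, and B cell-like, T cell-like and Plasma cell-like cells 1.90 CPM or less. Vascular endothelial-like cells were at 8.53 CPM and Monocyte-like cells at 5.66 CPM.

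Among APC-like clusters Pdgfa was highest in the matrix-led cluster 11, at 31.3, 35.3, 35.9 and 32.5 CPM, against 15.4 CPM in cluster 0, 13.5 in cluster 1 and 5.22 in cluster 21 overall. UMIs of both Pdgfa and Pdgfra, the ligand and its receptor, were found in 38.3% of Mesothelial-like cells, 34.6% of cluster 7 and 24.1% of APC-like cells before thinning. After thinning the shares in Mesothelial-like cells were 1.30%, 1.78%, 0% and 1.73% in the 4 libraries. By number of transcripts, 27.5% of all Pdgfa UMIs came from APC-like cells, 20% from Macrophage-like, 17.6% from Mesothelial-like, 13.7% from cluster 4 and 9.58% from cluster 7 cells.

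Pdgfb, which encodes the ligand of both receptors, was an endothelial and myeloid transcript. Cluster 12.0 was at 198 CPM and Vascular endothelial-like cells at 183 CPM, which did not differ in the libraries with at least 50 cells. The latter cells had 103, 280.2, 116 and 225 CPM (49, 69, 33 and 83 cells). Both Tom+ libraries were below both Tom- libraries, and the makeup of these cells moved with the label, whose part in the level was not tested. The Vwf and Selp-led cluster 28, where Pdgfb was 38.1 CPM, made up 30.6% and 36.4% of them on the Tom+ side and 0% and 2.41% on the Tom- side. Cluster 12.1, with 258 CPM, made up 30.6% and 12.1% of them on the Tom+ side and 53.6% and 33.7% on the Tom- side. Cluster 12.2, with 236 CPM, made up 12.2% and 21.2% against 29% and 39.8%. No ratio was formed on so few cells.

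Cluster 4 held 91.1 CPM of Pdgfb (78.0 to 99.4) and Macrophage-like cells 46.2 CPM (42.4 to 51.8), and the ranges of these did not overlap. NK-like cells were at 45.4 CPM, spread from 19.5 to 72.5 CPM over the libraries, and did not differ from Macrophage-like cells beyond that spread. T cell-like cells were at 14.3 CPM, and the γδ T cell receptor-expressing cluster 10 among them at 19.7 CPM. Lymphatic endothelial-like cells were at 28.9 CPM, far below the vascular ones. APC-like cells were at 0.822 CPM (0.642 to 1.04), between Plasma cell-like cells at 0.398 CPM (0.243 to 0.615) and B cell-like cells at 1.73 CPM (0.829 to 3.18). The shares of these cells with a Pdgfb UMI were 1.80%, 1.41% and 1.29%, and 0.166%, 0.371% and 0.777% after thinning.

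Of all Pdgfb UMIs, 31.9% came from Macrophage-like cells, 31.7% from cluster 4 and 10.5% from Vascular endothelial-like cells, which were 10.7%, 6.99% and 1.69% of cells. In the Tom+ libraries Macrophage-like cells gave 46.2% and 43.6%. In the Tom- libraries cluster 4 gave 41.7% and 42.9%. The level of Pdgfb over whole libraries was alike while the classes it came from differed between Tom+ and Tom- libraries.

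Pdgfc, which encodes a latent ligand of PDGFRα, had its highest level in macrophages. Macrophage-like cells had 30.8 CPM (21.3 to 36.5 across libraries; 36.5% of cells, and 1.04% in Plasma cell-like cells). Cluster 22, which mixed macrophage and T cell genes, had 22.8 CPM. No other class of at least 50 cells passed 6.43 CPM, and 0 of 253 Neutrophil-like cells had a UMI, which allows up to 1.19% of cells with a UMI at their median of 4014 UMIs and sets no limit on expressing cells. Cluster 4, for all its Pdgfa and Pdgfb, had 2.01 CPM. Macrophage-like cells gave 59.3% of all Pdgfc UMIs, and 72.2%, 39.1%, 65.1% and 43.4% in the 4 libraries. APC-like cells gave 3.00%, 20.2%, 1.61% and 30.3% in the same order.

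Macrophage-like cells were made up mainly of cluster 3, led by Ms4a7 and Gpnmb, and cluster 13, led by Vsig4, Retnla and Marco. Pdgfc was 27.6, 21.6, 26.4 and 19.8 CPM in cluster 3 and 77.8, 51.2, 91.7 and 32.9 CPM in cluster 13. Pdgfb was 35.7, 41.8, 41.0 and 37.0 CPM in cluster 3 and 108, 127, 67.7 and 91.7 CPM in cluster 13. In each library cluster 13 was above cluster 3 for both ligands, and Pdgfa (29.5, 41.8, 27.8 and 26.6 against 30.6, 35.3, 28.2 and 34.9 CPM) did not separate them.

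Cluster 4 shared high Pdgfb with cluster 13 and lacked its Pdgfc. Of cluster 4 cells 27.3% had both Pdgfa and Pdgfb and 2.47% both Pdgfb and Pdgfc, the latter 17.3% in Macrophage-like cells. Among progenitors, Pdgfc was found in the Pi16-led cluster 21 at 16.9 CPM and in cluster 11 at 6.99 CPM, against 0.485 and 0.913 CPM in clusters 0 and 1.

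**Figure D3:**
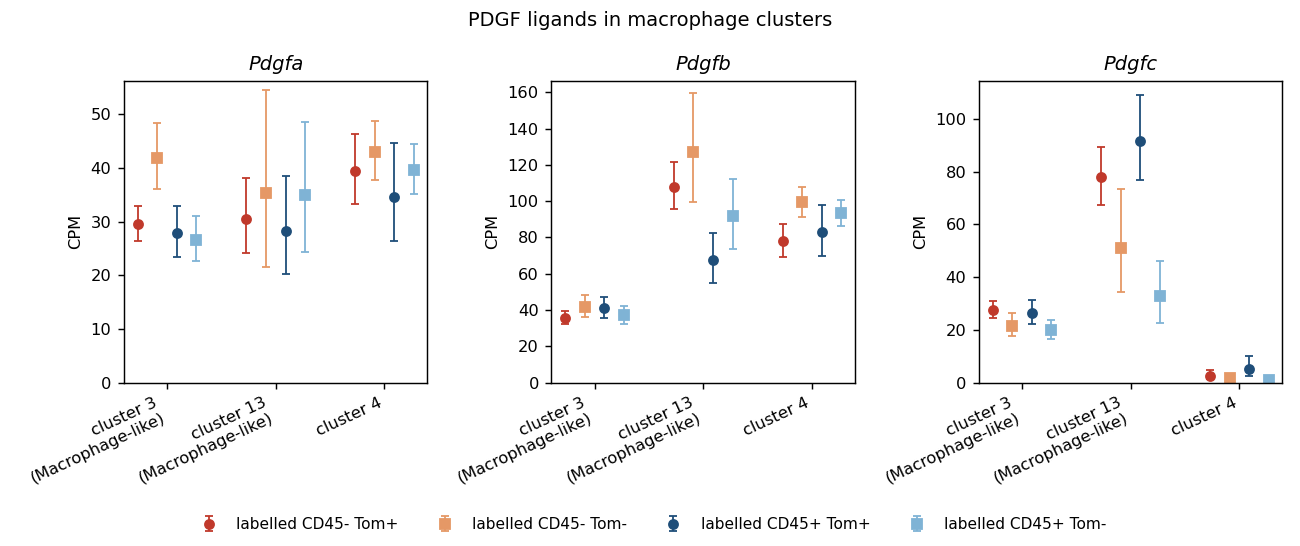
CPM of Pdgfa, Pdgfb and Pdgfc (panels) in clusters 3 and 13 of the Macrophage-like class and in cluster 4 (horizontal axis), 1 point per library; bars are 95% exact Poisson intervals. Pdgfc is highest in cluster 13 (32.9 to 91.7 CPM), with both Tom+ libraries above both Tom- libraries in clusters 3 and 13, and at most 5.29 CPM in cluster 4.

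The sending cells were compared between Tom+ and Tom- libraries where both sides of a pair held at least 100 cells. In Macrophage-like cells Pdgfc was 34.7 and 24.4 CPM in the CD45- pair and 36.5 and 21.3 CPM in the CD45+ pair, with log2 ratios of 0.51 (0.22 to 0.80) and 0.78 (0.49 to 1.06). Both Tom+ libraries were above both Tom- libraries. Pdgfb was 46.7, 51.8, 42.4 and 45.4 CPM, and its ratios of -0.15 (-0.35 to 0.06) and -0.10 (-0.32 to 0.12) included 0.

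Pdgfa was 28.8, 41.2, 26.4 and 26.9 CPM, with ratios of -0.52 (-0.76 to -0.27) and -0.03 (-0.31 to 0.26), so that the library labelled CD45- Tom- stood above the other three. Of 3 measured members, 2 of 3 passed the size of a call in the CD45- pair and 1 of 3 in the CD45+ pair, beside 12.4% of 7486 and 14.6% of 7574 genes.

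Cluster 13 was a larger part of Macrophage-like cells on the Tom+ side (24.4% and 30.0%) than on the Tom- side (16.5% and 18.4%). Within it the log2 ratios of Pdgfc were 0.60 (0.04 to 1.22) and 1.48 (0.92 to 2.08), and within cluster 3 0.35 (0.02 to 0.70) and 0.42 (0.05 to 0.79). The Tom- side of cluster 13 held 38 and 60 cells. With other cell filters or clusterings, or with doublets kept, the ratios of Pdgfc in the class were 1.01 to 1.20 and 1.35 to 1.47. Clusters were named anew in these settings and the Pdgfc level of the class was lower, so its cells may differ from those above. Cluster 4, at 2.01 CPM of Pdgfc, held 175 Tom+ and 317 Tom- cells in the CD45- pair and 90 and 388 in the CD45+ pair. Whether such cells joined the class was not tested. Igkc was 16812, 953, 18473 and 748 CPM in Macrophage-like cells, and APC markers summed to 89.2, 284, 130.2 and 372 CPM. The part of such RNA in the Pdgfc ratio was not tested. Pdgfc itself was at 2.41 CPM in APC-like and 0.279 CPM in Plasma cell-like cells.

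In cluster 4 Pdgfb was 78.0, 99.4, 82.8 and 93.5 CPM and Pdgfa 39.4, 43.0, 34.7 and 39.6 CPM. In the CD45- pair the log2 ratio of Pdgfb was -0.35 (-0.56 to -0.14) and that of Pdgfa -0.12 (-0.43 to 0.18), so that 1 of 2 measured members passed the size of a call, beside 19.7% of 7369 genes. With 90 cells on its Tom+ side the CD45+ pair gave -0.17 (-0.45 to 0.09) for Pdgfb. In T cell-like cells the ratios of Pdgfb were 0.48 (-0.34 to 1.35) and 0.02 (-0.99 to 0.95), wide intervals that rest on 46 against 18 and 14 against 35 UMIs.

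**Figure D4:**
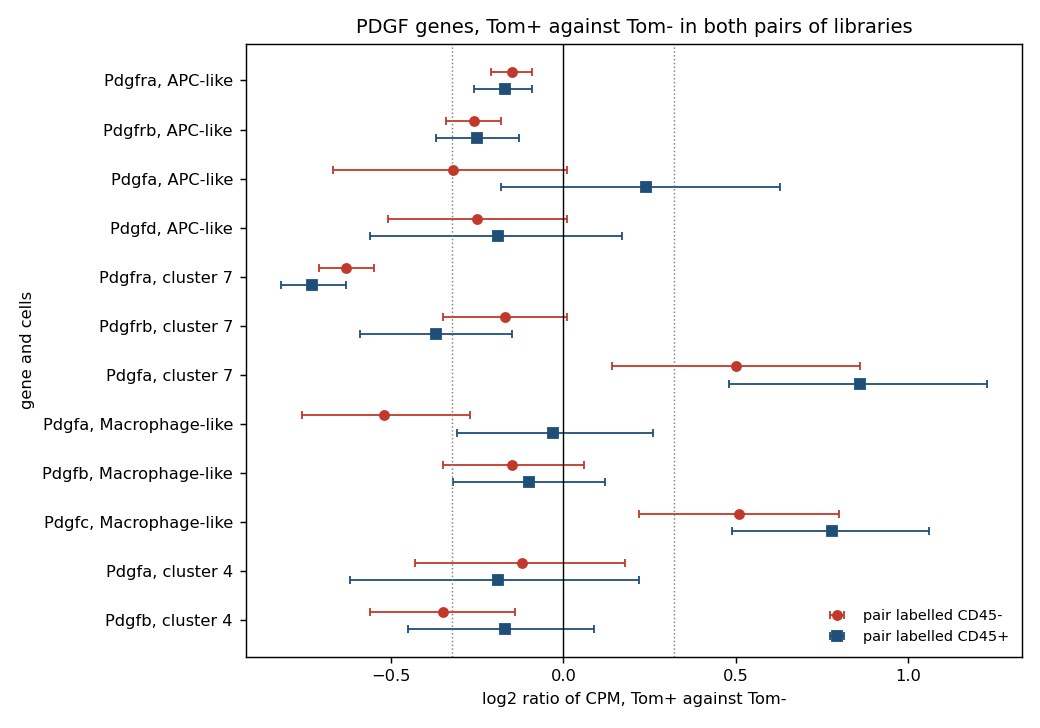
Log2 ratios of CPM, Tom+ against Tom- (horizontal axis), for the PDGF genes with enough counts in 4 groups of cells (vertical axis), 1 point per pair of libraries with its conditional exact 95% interval; dotted lines mark a log2 ratio of 0.322 in either direction. Pdgfra of cluster 7 (-0.63 and -0.73) and Pdgfc of Macrophage-like cells (0.51 and 0.78) lie beyond these lines in both pairs, while the receptors of APC-like cells stay within it.

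Pdgfd, which encodes the latent ligand of PDGFRβ, was expressed by endothelial cells and by the receiving stroma itself. Vascular endothelial-like cells had 34.8 CPM (28.4, 44.0, 32.3 and 35.2 CPM), cluster 12.0 30.1 CPM, APC-like cells 27.7 CPM and Mesothelial-like cells 22.3 CPM. After thinning the vascular level was 19.2 CPM and the share of cells with a UMI 3.85% (1.77 to 7.18), against 5.15% (4.45 to 5.92) in APC-like cells, so that the shares did not separate these classes. Lymphatic endothelial-like cells had 10.5 CPM and cluster 7 6.13 CPM. Leukocytes were at 0.519 CPM or less in each class, and 0 of 1129 T cell-like cells had a UMI, which allows up to 0.266% of cells with a UMI at their median of 6731 UMIs and sets no limit on cells that express the gene.

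By transcripts, 69.8% of Pdgfd UMIs came from APC-like cells and 18.0% from Mesothelial-like cells. Of APC-like cells with Pdgfrb, 43.6% also had Pdgfd before thinning. In APC-like clusters Pdgfd was 22.2 CPM in cluster 0, 32.6 in cluster 1, 32.1 in cluster 11 and 38.1 CPM in cluster 21, the cluster with the least Pdgfrb. Within the vessel-lining cells it was 59.1 CPM in cluster 12.1 and 20.6 to 33.4 CPM in the other vascular clusters.

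**Figure D5:**
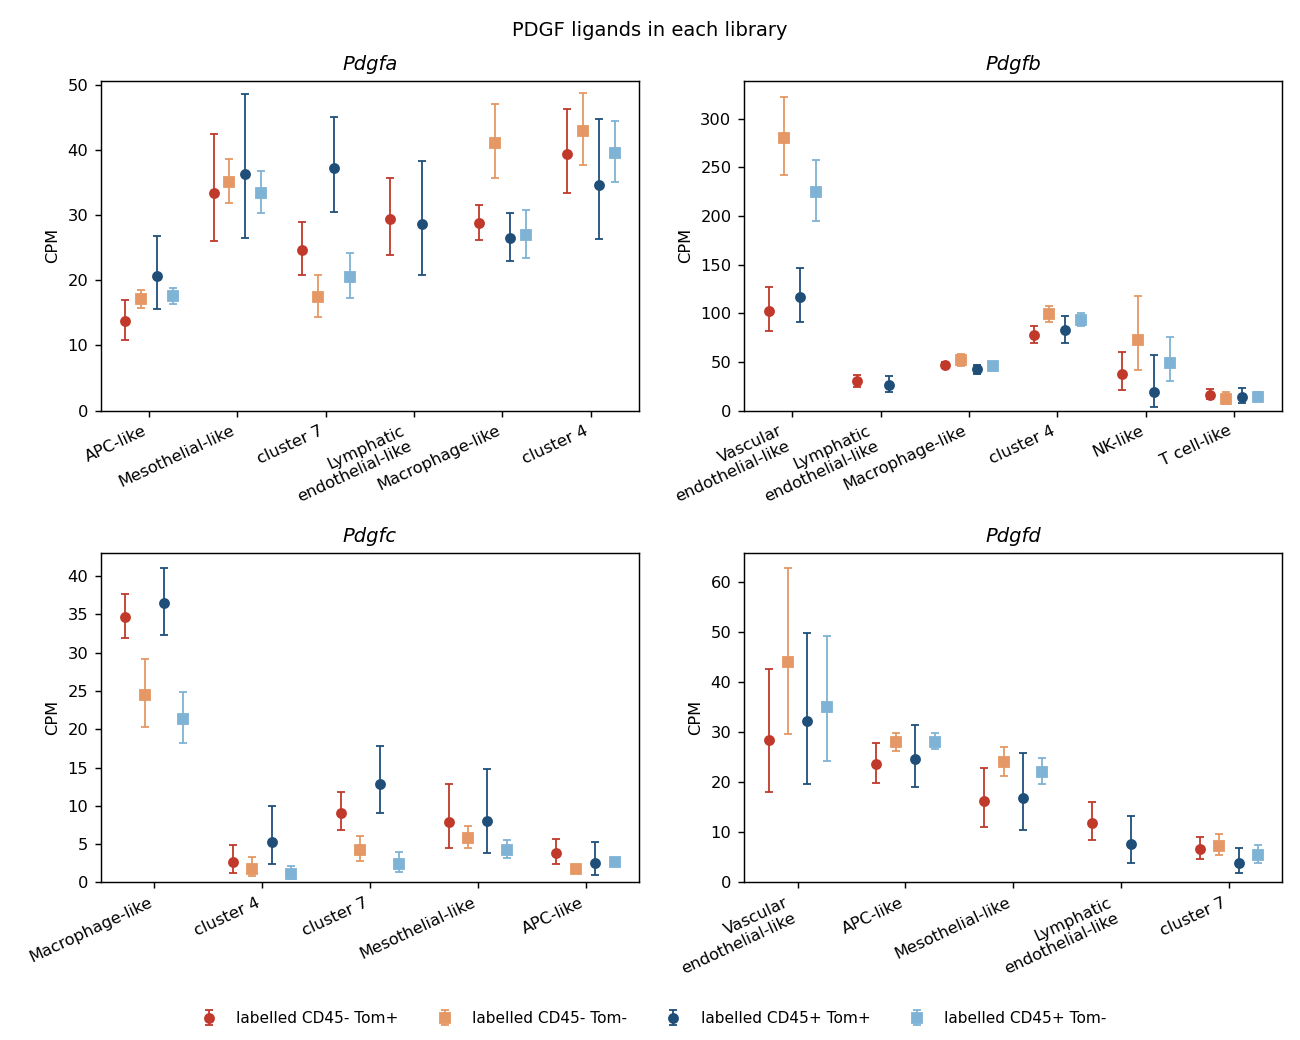
CPM of the 4 ligand genes (panels) in the classes that expressed them most (horizontal axis), 1 point per library of at least 10 cells in that class; bars are 95% exact Poisson intervals. Pdgfb stands at 103 to 280.2 CPM in Vascular endothelial-like cells and 78.0 to 99.4 CPM in cluster 4, and Pdgfc at 21.3 to 36.5 CPM in Macrophage-like cells.

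Genes that process the ligands or present them to the receptors followed other patterns. Plat and Plau, proteases known to activate PDGF-C and PDGF-D, were found mainly outside the macrophages that expressed Pdgfc. Plat was 346 CPM in cluster 7, 334 in Mesothelial-like, 304 in APC-like and 3.84 CPM in Macrophage-like cells, and Plau 88.1 CPM in APC-like and 30.0 CPM in Macrophage-like cells. Furin, a convertase that trims PDGF-A and PDGF-B, was 724 CPM in Mast-like cells, 124 in Macrophage-like and 46.6 CPM in APC-like cells. Nrp1, a co-receptor, was 644 CPM in cluster 12.0 and 172 CPM in APC-like cells, and Lrp1, a partner of PDGFRβ, 1209 CPM in APC-like cells.

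These lists were then compared between Tom+ and Tom- APC-like cells, beside the 9.78% of all genes that passed the size of a call in the CD45- pair and the 18.7% in the CD45+ pair. Of 9 measured genes of processing and co-reception, 0 were higher and 1 lower by the size of a call in the CD45- pair (median log2 ratio -0.08), and 1 higher and 1 lower in the CD45+ pair (-0.05). Of 23 genes of receptor-proximal signalling, such as adaptors, phosphatases and Src kinases, 0 passed in the CD45- pair (-0.08) and 3 were lower in the CD45+ pair (-0.08). Of 9 measured feedback genes of the ERK pathway 1 was higher in the CD45- pair (0.06), and 2 were higher and 2 lower in the CD45+ pair (-0.04), where the list ran from -0.87 to 0.67. The medians over all genes were -0.03 and -0.05.

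Only 2 of these genes passed in both pairs, and the share of all genes that did so is not given here. Pcsk6, a proprotein convertase, was 44.1 against 61.0 CPM in the CD45- pair and 36.9 against 63.7 CPM in the CD45+ pair (log2 ratios of -0.47 and -0.79). Dusp5, a phosphatase induced by ERK, was 23.8 against 13.4 CPM and 17.4 against 12.6 CPM (0.83, and 0.46 with an interval that reached 0). Transcripts known to rise during tissue dissociation had medians of 0.00 and 0.10. Of 10 such genes 2 were higher and 0 lower in the CD45+ pair, beside 561 higher and 969 lower of 8194 genes. None passed in the CD45- pair, beside 308 higher and 497 lower of 8233 genes.

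Of the related receptor genes, Kit was 1696 CPM in Mast-like, Csf1r 632 CPM in Monocyte-like and Flt3 157 CPM in Dendritic-like cells. Only Csf1r reached the minimum in APC-like cells, at 21.8 CPM in the library labelled CD45- Tom+ against 6.30 CPM in CD45- Tom- (log2 ratio 1.79). In the CD45+ pair it was below the minimum, at 7.02 against 5.76 CPM (0.29, -0.47 to 0.96).

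The genes whose levels followed a PDGF gene most closely over the 20 classes are given as a description, since the classes share libraries. For Pdgfra these were Col6a5 and Col6a2 (Pearson r of 0.997 for both) and Dact3 (0.993), and for Pdgfrb Col5a3 (0.991), Prrx1 (0.984) and Col6a3 (0.982). Pdgfd came with Tns2 (0.981), Phactr1 and Galnt15 (0.980 for both). Pdgfb came with Slc12a7 (0.933), Itga6 (0.923) and Nus1 (0.913), Pdgfa with B3glct (0.917), Pld1 (0.887) and Lmna (0.886), and Pdgfc with the scavenger receptor gene Cd163 (0.881), Ms4a14 (0.871) and Scamp5 (0.870).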

How the data were processed

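The 4 single-cell libraries of the sorted stromal vascular fraction, 1 per group, were measured with 10x 3′ chemistry. The deposited matrices hold UMI counts per gene and cell barcode, which the authors made with Cell Ranger 3.0.2 (from the submitters' processing notes) on mm10. The values are raw counts, so no normalization had been applied. The libraries held 139397501, 110410319, 64083756 and 136459745 UMIs in 7815, 11255, 3429 and 11068 barcodes.

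Cells with 1000 to 7000 genes and under 8% mitochondrial UMIs were kept, the study's stated limits, leaving 4145, 4038, 1981 and 4818 barcodes. A Scrublet-type simulation in scanpy 1.11.5, at 0.8% doublets per 1000 barcodes, removed 259, 364, 54 and 427. Cells were clustered with 2000 variable genes, 30 components, 15 neighbours and the Leiden method (leidenalg 0.10.2, resolution 1), without the PDGF genes, the genes of the pathway lists and tdTomato. This gave 37 clusters, of which 27 were named from markers. A marker counted as raised at 20 CPM and 4-fold over the median cluster. A name needed 3 raised markers and a lead of 20 percentage points over the next unrelated class. It also needed no more markers of another class than of its own among the 10 leading genes. Related classes closer than that, such as NK and T cells or vascular and lymphatic endothelium, were told apart first by their markers among the 10 leading genes. These thresholds, and the subdivision of 1 endothelial cluster with mural cells, were chosen after seeing the data. Rebuilt names may differ from the study's.

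Levels are summed UMIs scaled to 1000000 (CPM) with exact Poisson intervals, shares have Clopper-Pearson intervals, and Tom+ to Tom- ratios have conditional exact intervals (scipy 1.17.1). All are at 95% and cover counting error only. A count of 0 was given the limit of 3 counts. Genes that averaged 10 CPM or more in a pair with 100 or more cells per library counted as measured, and a log2 ratio of 0.322 as the size of a call. Ratios were computed over all measured genes and checked on simulated data. Shares were also computed after thinning to 2000 UMIs per cell, which left out 13, 21, 0 and 26 cells. The genes named are the 6 members, list genes past that size in both pairs of APC-like cells, Ptprc, Cdkn2a and tdTomato, and the 3 genes of most similar profile on log2(CPM + 10) with at least 20 CPM in a class. Other genes of the lists and the leading genes of clusters were named after their values were seen. The members and lists were chosen with earlier results of these data known. Gene positions are from GENCODE on mm10. Alternatives changed the cell filter, doublets, resolution, variable genes, scaling, depth, the weight of each cell, the mix of APC-like clusters and shared barcodes.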

Additional observations from a re-analysis of the deposited data

How the results depend on the processing

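With 1 library per group no spread between replicates was available, and the depth limits genes below about 10 CPM to wide intervals. A paired test over the 2 pairs of libraries was not run. The cause of the shifts below was not tested. In APC-like cells Pdgfra (476 CPM) was 469.9 with a lenient cell filter, 500.4 after thinning, 507 with each cell weighed equally, 535 with barcodes of 1 library only and 559 CPM when scaled without abundant families. Pdgfrb (266 CPM) was 270.2, 276, 271, 275 and 312 CPM in the same order. Scaled without abundant families, Pdgfa of Mesothelial-like cells (34.3) was 40.4 CPM and Pdgfb of Vascular endothelial-like cells (183) was 215 CPM, the latter 199 CPM with cells weighed equally. Pdgfd of Vascular endothelial-like cells (34.8) was 19.2 CPM after thinning. Pdgfc of Macrophage-like cells (30.8) was 22.5 with doublets kept, 22.1 with the lenient filter, 24.6 at resolution 2, 21.7 with 4000 variable genes, 46.7 after thinning, 37.0 with cells weighed equally, 37.1 with barcodes of 1 library and 38.2 CPM with the other scaling. The log2 ratio of Pdgfra in APC-like cells was -0.22 thinned, -0.25 with barcodes of 1 library and -0.08 with the other scaling in the CD45- pair, and -0.08 with 4000 variable genes and -0.29 thinned in the CD45+ pair. That of Pdgfrb was -0.47 thinned in the CD45- pair, and in the CD45+ pair it turned to 0.09 thinned and was -0.11 with cells weighed equally. The leukocyte list's medians were 4.42 and 4.66 among genes of at least 50 CPM. Of the other values, 79 of these summary results and 153 single-gene results moved by less than their interval, and 25 single-gene results moved by more. List medians, which have no interval, were held to a log2 shift of 0.2 instead. Leaving the endothelial cluster undivided, an alternative chosen after seeing the data, gave 179 CPM of Pdgfb and 34.7 CPM of Pdgfd.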

Other observations

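Small groups of cells outside the order of classes carried PDGF genes in other combinations. Cluster 29 (28 cells, found in the Tom+ libraries and led by the epididymal genes Gpx5 and Defb20) had Pdgfra at 181 CPM (156 to 208) and no Pdgfrb UMI, which by the Poisson interval allows up to 3.56 CPM. Cluster 27 (39 cells, led by Spink8 and Crisp1) had Pdgfra at 55.7, Pdgfa at 58.1 and Pdgfb at 33.9 CPM.

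Among Mesothelial-like cells, the 50 cycling cells of cluster 25 had Pdgfra at 226.5 CPM (201 to 255), Pdgfrb at 41.6, Pdgfa at 22.8 and Pdgfd at 4.89 CPM. The 878 other cells, of cluster 5, had Pdgfra at 152, Pdgfrb at 24.4, Pdgfa at 34.8 and Pdgfd at 23.1 CPM. The Tom+ to Tom- log2 ratio of Pdgfra in cluster 5 was 0.48 (0.31 to 0.65) in the CD45- pair and -0.07 (-0.31 to 0.17) in the CD45+ pair, whose Tom+ side held 29 cells. That of Pdgfrb was -0.30 (-0.83 to 0.19) and -1.08 (-2.05 to -0.26), the latter from 12 UMIs on the Tom+ side.

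Mast-like cells had 29 UMIs of Pdgfrb (8.02, 11.0, 2.91 and 3.41 CPM in the 4 libraries) and 8 of Pdgfra. Barcodes with under 500 genes numbered 126, 3762, 43 and 2949 in the 4 libraries. Pdgfra stood at 0, 166, 12.1 and 146 CPM in them and Pdgfrb at 0, 78.5, 0 and 75.4 CPM. The few Tom+ barcodes held 1 UMI of Pdgfra and none of Pdgfrb. Their intervals reached 16.95 and 67.6 CPM for Pdgfra and 16.95 and 44.7 CPM for Pdgfrb.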
